A study of Mus musculus with 8 samples.

Results

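The GABA-A receptor is a chloride channel opened by the transmitter GABA, and the transcripts of 7 of its subunit genes were followed here in mouse dorsal root ganglia (DRG) through inflammation of the hind paw. The genes were *Gabra2*, *Gabra3* and *Gabra5* (α subunits), *Gabrb1* and *Gabrb2* (β subunits), and *Gabrg1* and *Gabrg3* (γ subunits). They were taken by symbol from the deposited table of 24421 genes, and all 7 passed the filter on low counts that left 17328 genes to be tested. None of the 7 passed the test between any pair of time points, and 0.0231% to 0.935% of all genes tested did, depending on the pair. The transcripts of *Gabra2* and *Gabrg1* were the highest of the 7 per length of gene in each of the 8 libraries. Those of *Gabrb1* and *Gabrg3* were the lowest. *Gabra3* was higher in both libraries of 30 days than in the other 6, as were 8.87% of all genes tested, without passing the test.

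GABA-A receptors are pentamers, usually assembled from α, β and γ subunits around a chloride pore. GABA binds where a β subunit meets an α subunit, benzodiazepines bind where an α subunit meets a γ subunit, and the γ subunit is also needed to gather receptors at synapses. In sensory neurons of the DRG the intracellular chloride is kept high by a sodium-potassium-chloride cotransporter, so that GABA depolarises them, and receptors on their central terminals in the spinal cord carry presynaptic inhibition.

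All groups were wild-type C57BL/6J mice, aged 8 weeks by the design text of the series and 8 to 12 weeks by the methods, which also give male mice. The group 0d was naive and received no injection, and the groups 1d, 3d and 30d were taken 1, 3 and 30 days after 20 µL of 1% carrageenan, a seaweed polysaccharide that inflames tissue, was injected into the left hind paw. RNA was taken from the left lumbar ganglia L3 to L5 of 2 to 3 mice pooled per library, with 2 such pools at every time point, so the replicates are not single animals. No vehicle group was among the samples, so the effect of the injection itself and that of inflammation cannot be told apart. The labels call the samples DRG neurons, but whole ganglia were dissected, and markers of glia, fibroblasts and blood were present beside those of neurons. In such bulk samples fewer cells of a type and less RNA per cell cannot be told apart.

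The libraries held 44123208 to 73580338 counts, and library scaling factors lay between 0.993 and 1.01. Replicates differed by more than sampling noise, least at 3d and most at 30d, where the chi-square per degree of freedom was 25.0. The summed level of 10 sensory neuron markers lay between 19014 and 20233 CPM (counts scaled to library size), and the lowest sum was that of 30d replicate 1. Satellite glia markers (6 genes) summed to 2619 and 2712 CPM at 30d against 2919 to 3136 CPM in the other 6 libraries. Of these genes only *Apoe*, an apolipoprotein, passed the test at 30d against 0d, as 0.0231% of all genes did. It was lower at 30d (log2 fold change -0.28, SE 0.0388, adjusted p = 0.0322). Schwann cell markers (6 genes) ranged from 5720 CPM in 30d replicate 1 to 11151 CPM in 0d replicate 1. Spinal cord markers (9 genes) summed to at most 21.5 CPM, with 1 to 4 of them at 0 in each library.

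Several of the 7 genes are neighbours in the genome. In the mm10 gene models that the counts were made on, *Gabrg1* (chr5:70751047-70842617, minus strand) and *Gabra2* (chr5:70961057-71095849, minus strand) lie 118.4 kb apart on chromosome 5, and *Gabrb1* (chr5:71700016-72137244, plus strand) begins 604.2 kb beyond *Gabra2*. *Gabra5* (chr7:57407669-57510009, minus strand) and *Gabrg3* (chr7:56724242-57386871, minus strand) lie 20.8 kb apart on chromosome 7. *Gabrb2* (chr11:42419757-42632591, plus strand) is on chromosome 11 and *Gabra3* (chrX:72432676-72656246, minus strand) on the X chromosome.

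The promoters of 3 of the genes are printed here, those of the neighbours *Gabra2* and *Gabrg1* because these had the highest levels and that of *Gabra3* because its libraries at 30d stood apart. Each is the RefSeq window (GRCm38.p6) from 250 bases before to 50 bases after a start site, read 5′ to 3′ on the strand of the gene. Capitals mark each CG dinucleotide. The *Gabra2* window is chr5:71095800-71096099, the *Gabrg1* window chr5:70842568-70842867 and the *Gabra3* window chrX:72656870-72657169, all on the minus strand.
Gabra2: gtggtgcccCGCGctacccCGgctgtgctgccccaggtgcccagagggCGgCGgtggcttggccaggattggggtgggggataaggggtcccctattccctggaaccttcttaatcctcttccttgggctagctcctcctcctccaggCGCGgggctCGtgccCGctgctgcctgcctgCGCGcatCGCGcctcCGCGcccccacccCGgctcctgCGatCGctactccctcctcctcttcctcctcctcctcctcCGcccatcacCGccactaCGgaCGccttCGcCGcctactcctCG
Gabrg1: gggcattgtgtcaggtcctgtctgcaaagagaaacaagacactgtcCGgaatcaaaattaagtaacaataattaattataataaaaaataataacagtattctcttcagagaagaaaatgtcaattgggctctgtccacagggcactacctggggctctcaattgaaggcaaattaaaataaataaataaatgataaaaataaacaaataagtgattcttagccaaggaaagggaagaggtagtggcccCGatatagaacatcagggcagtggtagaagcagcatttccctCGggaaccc
Gabra3: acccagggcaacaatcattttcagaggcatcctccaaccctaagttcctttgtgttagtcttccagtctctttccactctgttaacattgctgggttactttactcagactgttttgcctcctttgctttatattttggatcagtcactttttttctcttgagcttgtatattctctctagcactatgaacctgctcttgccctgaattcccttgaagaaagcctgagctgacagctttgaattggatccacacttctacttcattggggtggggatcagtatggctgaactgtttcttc
The window of *Gabra2* was GC-rich, with 70.0% G and C and 25 CG, and 18.4% of all 32851 RefSeq windows held as many CG. That of *Gabrg1* had 38.3% G and C and 3 CG, a number reached by 76.7% of windows. RefSeq gives a pair of overlapping windows for *Gabra3*, neither with a CG, and the one printed was chosen after their values were seen. This window, whose start site lies 673 bases before that of the gene model counted, held no CG and had 43.0% G and C, and CG was present in 94.6% of all windows. Motifs were sought on both strands. The GC box GGGCGG, which holds a CG itself, was found 2 times for *Gabra2*, in neither of the other windows, and in 35.7% of all windows. The CCAAT box was found once for *Gabra2*, once for *Gabrg1*, 2 times for *Gabra3* and in 37.4% of all windows. The TATAAA motif was found once, for *Gabra3*, and in 13.6% of all windows. All 7 genes had an entry in the promoter table.

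To compare genes with one another, levels were set per kb of the gene model counted (CPM per kb). *Gabra2* had the highest median over the 8 libraries, 9.20 CPM per kb, and ranged from 7.55 to 11.4. *Gabrg1* followed at 7.63 CPM per kb (range 7.06 to 8.38). Their ranges overlapped, although *Gabra2* was above *Gabrg1* in 8 of 8 libraries. *Gabra3* came next with a median of 3.91 CPM per kb (3.75 to 4.79), then *Gabrb2* with 3.31 CPM per kb (3.07 to 3.66) and *Gabra5* with 2.57 CPM per kb (2.38 to 3.02). None of these 3 ranges overlapped the next, but the steps between them were small, 1.18-fold from *Gabra3* to *Gabrb2* and 1.29-fold from *Gabrb2* to *Gabra5*. A step of 4.73-fold separated *Gabra5* from *Gabrb1*, at 0.543 CPM per kb (0.461 to 0.669). *Gabrg3* was the lowest, at 0.313 CPM per kb (0.219 to 0.802), and lay below *Gabrb1* in 7 of 8 libraries.

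**Figure D1:**
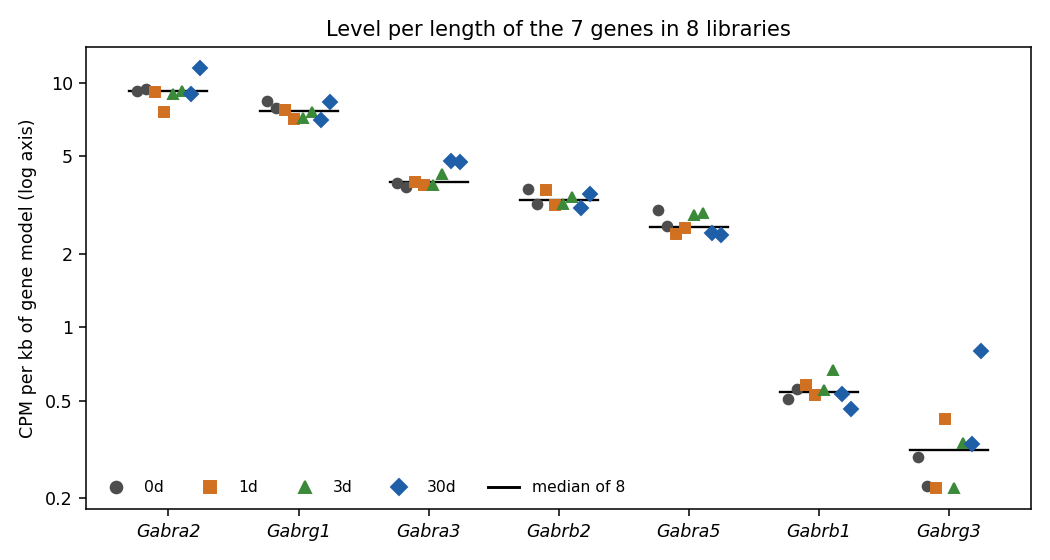
Level of each of the 7 subunit genes in CPM per kb of gene model (log axis), 1 point per library, with symbols for the time points and a bar at the median of the 8 libraries. *Gabra2* and *Gabrg1* lie above 7 CPM per kb in every library, and *Gabrb1* and *Gabrg3* lie below 1.

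The lengths behind this order limit it. The counted gene models of *Gabra3*, *Gabra5* and *Gabrg1* were between 100% and 101.8% of the longest GENCODE transcript in length, but those of *Gabra2* (40.9%), *Gabrg3* (17.1%) and *Gabrb1* (13.5%) were shorter and that of *Gabrb2* (189.3%) was longer, so reads from parts of a transcript outside the shorter models were not counted, and the CPM per kb of *Gabrb2* was divided by a greater length than that of its longest transcript. *Gabra5* shared 148 bases with *Gm9962* and 4.005% of its 50-base words with that gene, and since the counting did not use strand and gave a read to every gene it touched, reads of the 2 genes cannot be told apart there. Of the 50-base words of the other 6 genes, at most 0.737% (*Gabra2*) occurred in another gene.

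Together the 7 genes held 30.7% (1d replicate 2) to 37.0% (30d replicate 2) of the summed CPM per kb of 19 ionotropic GABA receptor subunit genes. The 3 α genes held 17.0% to 21.7% of that sum, the 2 β genes 4.48% to 5.03% and the 2 γ genes 9.05% to 10.7%. These shares rest on the same gene model lengths and carry the same limit, and the lengths of the other 12 genes were not checked. At 0d the share of all 7 was 35.0% and 32.9%, within the range of the later time points.

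Across time points, the comparisons with 0d ask how the ganglia differed from naive ones at each stage, and those between 1d, 3d and 30d ask how the later stages differed from each other. Among the α subunits, *Gabra2* encodes α2, one of the α subunits of benzodiazepine-sensitive receptors. Its level was 22.2 and 22.4 CPM at 0d, 22.0 and 18.1 CPM at 1d, 21.5 and 22.0 CPM at 3d, and 21.5 and 27.3 CPM at 30d. 6 of the 8 libraries lay within 1 CPM of each other, and the exceptions were 1d replicate 2, which was low, and 30d replicate 2, which was high.

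*Gabra3* encodes α3, which also joins benzodiazepine-sensitive receptors. Its level was 14.5 and 13.99 CPM at 0d, 14.6 and 14.2 CPM at 1d, 14.2 and 15.8 CPM at 3d, and 17.8 and 17.6 CPM at 30d. Both 30d libraries were above all 6 others, which was also the case for 8.87% of the 17328 genes tested.

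*Gabra5* encodes α5, which is known from receptors outside synapses that carry tonic currents. Its level was 8.07 and 6.93 CPM at 0d, 6.41 and 6.82 CPM at 1d, 7.68 and 7.82 CPM at 3d, and 6.47 and 6.36 CPM at 30d. The 1d and 30d libraries were all below those of 0d and 3d, with 6.82 CPM at 1d and 6.93 CPM at 0d as the nearest pair.

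Of the β subunits, which line the GABA binding site with α, *Gabrb2* (β2) was at 27.6 and 24.2 CPM at 0d, 27.4 and 23.9 CPM at 1d, 24.1 and 25.8 CPM at 3d, and 23.2 and 26.5 CPM at 30d. The 4 time points overlapped throughout. *Gabrb1* (β1) was at 0.945 and 1.04 CPM at 0d, 1.08 and 0.980 CPM at 1d, 1.03 and 1.24 CPM at 3d, and 0.994 and 0.857 CPM at 30d. These values rest on 43 to 91 counts per library, and the highest, 3d replicate 2, had a 95% Poisson interval of 1.00 to 1.53 CPM, which overlapped that of the lowest, 30d replicate 2, at 0.654 to 1.10 CPM.

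*Gabrg1* encodes γ1, a γ subunit that gives receptors a lower benzodiazepine sensitivity. Its level was 40.0 and 37.5 CPM at 0d, 36.7 and 33.8 CPM at 1d, 34.2 and 36.1 CPM at 3d, and 33.7 and 39.9 CPM at 30d. Both 0d libraries were above those of 1d and 3d, and the 30d libraries spanned nearly the whole range.

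*Gabrg3* encodes γ3, a γ subunit that can also complete a benzodiazepine site. Its level was 0.491 and 0.375 CPM at 0d, 0.367 and 0.707 CPM at 1d, 0.368 and 0.561 CPM at 3d, and 0.556 and 1.34 CPM at 30d, from 17 to 94 counts per library. The 30d libraries differed by more than counting error, with 95% Poisson intervals of 0.383 to 0.781 CPM in replicate 1 and 1.08 to 1.64 CPM in replicate 2. The highest library was 3.66 times the lowest, against 1.51 times for *Gabra2*, 1.45 times for *Gabrb1* and 1.19 to 1.28 times for the other 4 genes.

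**Figure D2:**
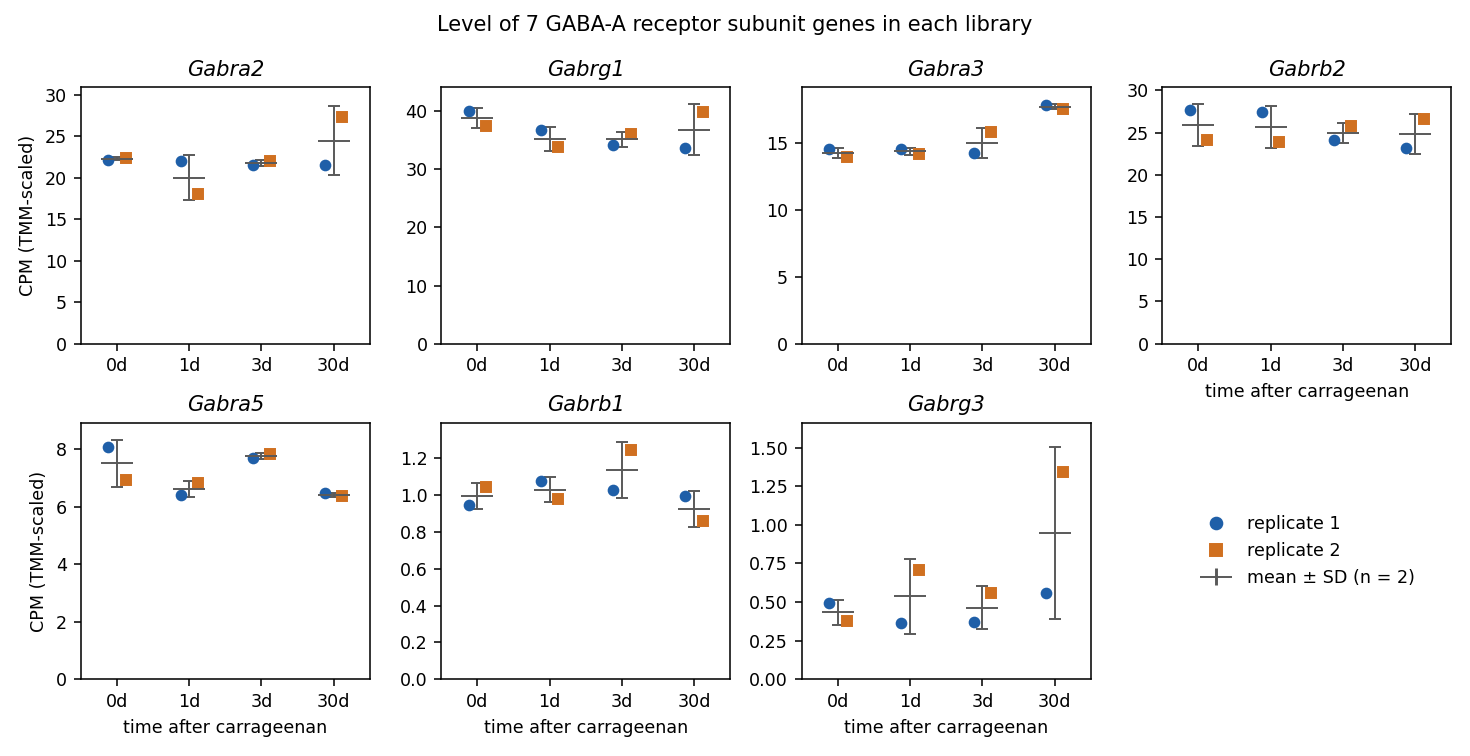
Level of each of the 7 subunit genes in TMM-scaled CPM at 0d, 1d, 3d and 30d, 1 panel per gene, with a circle for replicate 1, a square for replicate 2 and the mean ± SD of the 2 libraries. *Gabra3* is higher in both 30d libraries (17.8 and 17.6 CPM) than in the other 6, as are 8.87% of all genes tested. For *Gabrg3* only 1 of the 30d libraries (1.34 CPM) stands apart.

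None of the 7 genes passed an adjusted p of 0.05 at 1d against 0d, where 0.346% of all genes tested did. The largest differences in size were those of *Gabrg3* (log2 fold change 0.31, SE 0.617), which was within its error, *Gabra5* (-0.18, SE 0.145) and *Gabra2* (-0.15, SE 0.118). With 1 library left out, *Gabra5* ranged from -0.29 (without 0d replicate 2) to -0.0652 (without 0d replicate 1) and *Gabra2* from -0.30 (without 1d replicate 1) to -0.0211 (without 1d replicate 2). The groups did not overlap for 3 of the 7, *Gabra2*, *Gabra5* and *Gabrg1*, all lower at 1d, and did not overlap for 31.9% of all genes. The median size of the log2 fold change was 0.14 for the 7 genes and 0.08 for all genes, and 3 were positive and 4 negative. No gene of the 7 had an unadjusted p under 0.05, against 4.47% of all genes.

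At 3d against 0d none of the 7 was called either, against 0.219% of all genes. *Gabra2* and *Gabrg1* were lower at 3d without overlap, 2 of the 7 against 39.5% of all genes, by log2 fold changes of -0.03 (SE 0.116) and -0.14 (SE 0.0837). With 1 library left out these ranged from -0.0525 to -0.0146 and from -0.19 to -0.0932. The median size was 0.08 for the 7 and 0.08 for all genes. An unadjusted p under 0.05 was reached by 0 of the 7 and by 5.94% of all genes.

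At 30d against 0d none of the 7 was called, against 0.0231% of all genes, or 4 genes. The mean of *Gabra3* was 17.7 ± 0.182 CPM at 30d against 14.3 ± 0.387 CPM in the 0d group (SD, n = 2 in both), giving a log2 fold change of 0.31 (SE 0.0997, 95% interval 0.10 to 0.53), with an unadjusted p of 0.00706 and an adjusted p of 0.239 by edgeR's quasi-likelihood test. It was the only one of the 7 with an unadjusted p under 0.05, as 12.3% of all genes had. Its fold change stayed between 0.28 and 0.34 and its adjusted p between 0.179 and 0.698 in every other setting tried, each left-out library included. The satellite glia sum, most of which is *Apoe*, was low in both 30d libraries, although its members differed. Their log2 fold changes at 30d against 0d were -0.70 (*Fabp7*, SE 0.391), -0.30 (*Kcnj10*, SE 0.0765), -0.28 (*Apoe*) and -0.09 (*Sox10*, SE 0.0789). Those of *Cdh19* and *Glul* were -0.0070 and 0.12, and only *Apoe* was called. Neutrophil markers (4 genes, 172 CPM) and erythroid markers (5 genes, 515 CPM) were highest in 30d replicate 1, against at most 113 and 282 CPM elsewhere. Of the erythroid markers, *Hba-a1* and *Hba-a2* had the same range of counts (2396 to 9263), so their sum may hold the same reads for both. The part of satellite glia, neutrophils and erythroid cells in the level of *Gabra3* was not tested.

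*Gabrg3* had the largest fold change of the 7 at 30d against 0d, 1.14 on the log2 scale, but with an SE of 0.594 and an adjusted p of 0.459. It was 0.36 without 30d replicate 2 and 1.63 without 30d replicate 1. *Gabra5* was lower at 30d without overlap (log2 fold change -0.23, SE 0.143, adjusted p = 0.548), and this was -0.11 without 0d replicate 1 and -0.33 without 0d replicate 2. With *Gabra3* and *Gabrg3* above, 3 of the 7 did not overlap, against 39.6% of all genes. For *Gabrg1* and *Gabrb2* the 95% intervals ran from -0.25 to 0.10 and from -0.27 to 0.15, on the log2 scale.

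**Figure D3:**
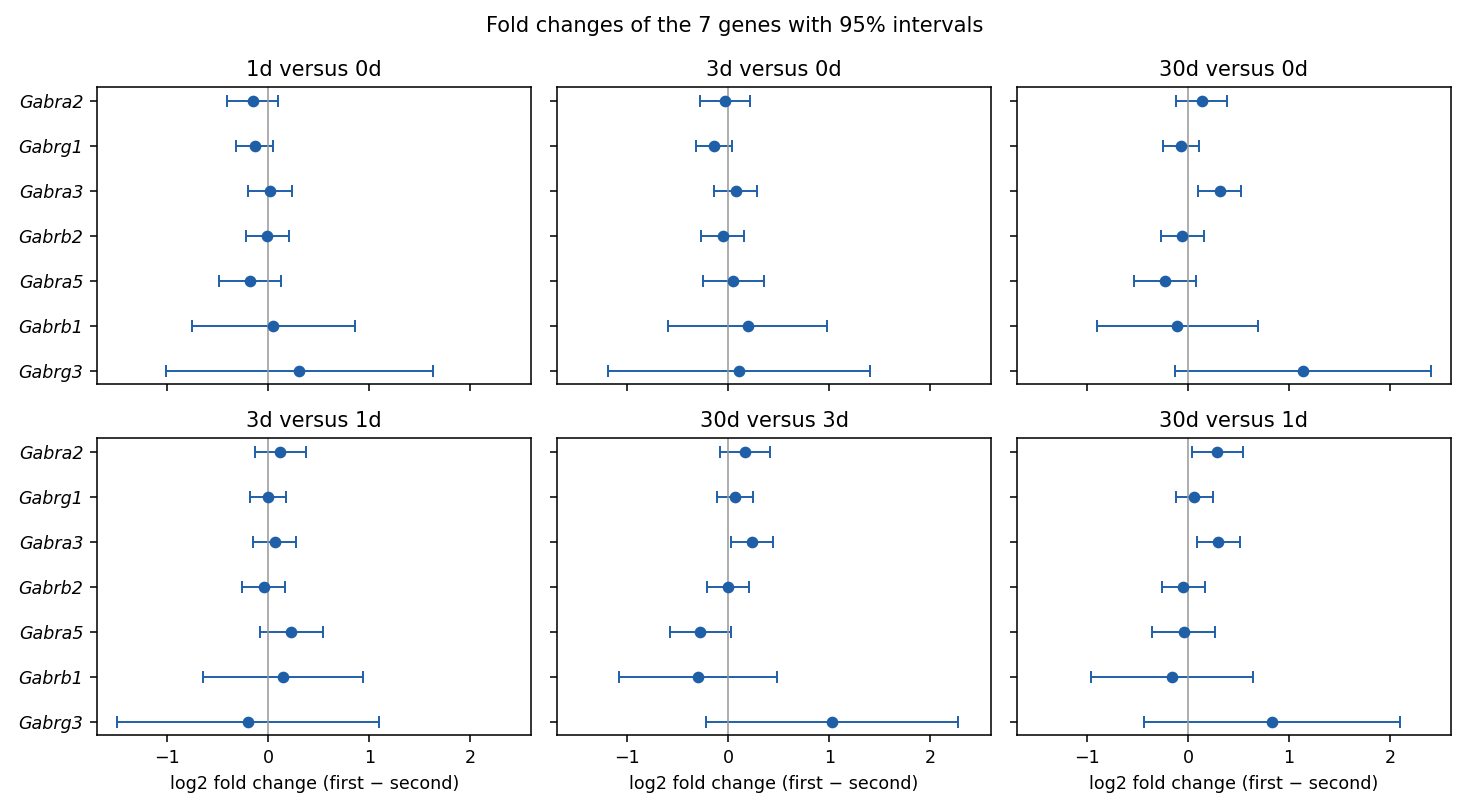
Log2 fold changes of the 7 subunit genes in the 6 comparisons, the later time point against the earlier, with 95% intervals from the fit across all genes. The intervals of *Gabra3* at 30d lie above 0 in all 3 comparisons before adjustment (0.10 to 0.53 against 0d), and those of *Gabrb1* and *Gabrg3* are the widest.

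Between the later time points, none of the 7 was called at 3d against 1d (0.289% of all genes), at 30d against 3d (0.935%) or at 30d against 1d (0.571%), and none in the test for a difference at any time point (1.02%). *Gabra3* was higher at 30d than at 3d by 0.24 (SE 0.0989, adjusted p = 0.326) and than at 1d by 0.30 (SE 0.101, adjusted p = 0.267) on the log2 scale, and these comparisons share the 30d libraries with the one against 0d. *Gabra2* was higher at 30d than at 1d by 0.29 (SE 0.117, adjusted p = 0.369). This rests on single libraries. The difference was 0.10 without 30d replicate 2, 0.15 without 1d replicate 2, 0.44 without 1d replicate 1 and 0.45 without 30d replicate 1. In each of these fits 1 time point has a single library, which is assumed to vary like those of the other time points. *Gabra5* was lower at 30d than at 3d, with means of 6.41 ± 0.0799 against 7.75 ± 0.101 CPM (SD, n = 2 in both), giving a log2 fold change of -0.27 (SE 0.142, adjusted p = 0.434). *Gabra5* was also higher at 3d than at 1d by 0.23 (SE 0.144), with 95% limits of -0.08 and 0.54. *Gabrg3* was higher at 30d than at 3d by 1.03 (SE 0.584, adjusted p = 0.475) and than at 1d by 0.83 (SE 0.593, adjusted p = 0.604), and without 30d replicate 2 these differences were 0.25 and 0.05. With any 1 library left out they reached up to 1.52 (without 30d replicate 1) and 1.37 (without 1d replicate 2). The fold changes of *Gabrb2* were the smallest as a group, between -0.06 and -0.0028 on the log2 scale in all 6 comparisons, each with an SE of about 0.10. Those of *Gabrg1* lay between -0.14 and 0.07, with 95% intervals reaching no lower than -0.32 and no higher than 0.24. *Gabrb1*, with few counts, had its largest difference at 30d against 3d, -0.30 (SE 0.366, adjusted p = 0.777), which became -0.15 without 3d replicate 2 and -0.20 without 30d replicate 2.

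The libraries of 30d and 3d did not overlap for 3 of the 7, *Gabra3*, *Gabra5* and *Gabrb1*, against 46.4% of all genes. Those of 3d and 1d did not overlap for *Gabra5* alone, higher at 3d (37.6% of all genes), and those of 30d and 1d for *Gabra3* alone (40.0%). An unadjusted p under 0.05 was reached by 0 of the 7 at 3d against 1d (4.24% of all genes), by *Gabra3* at 30d against 3d (13%), by *Gabra2* and *Gabra3* at 30d against 1d (11.7%) and by *Gabra3* in the test over all time points (edgeR adjusted p = 0.345), where 11% of all genes reached it.

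Over the 8 libraries the log2 CPM of the 7 genes went together to differing degrees. The highest of the 21 correlations were between *Gabrb2* and *Gabrg1* (Pearson's r 0.79), between the neighbours *Gabra2* and *Gabrg1* (0.72) and between *Gabra3* and *Gabrg3* (0.65), and the lowest was between *Gabrb1* and *Gabrg3* (-0.57). The other neighbours went apart, with an r of -0.36 for *Gabra5* and *Gabrg3*, -0.35 for *Gabra2* and *Gabrb1* and -0.36 for *Gabrb1* and *Gabrg1*. These are descriptions over 8 libraries that share time points, depth and cell makeup.

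The same fit gives the rest of the GABA pathway, in 5 lists. None of the 10 tested genes among the other 12 ionotropic subunit genes was called in any comparison, and their median log2 fold change at 30d against 0d was 0.06, beside -0.06 for the 7 genes above and -0.000396 for all genes tested. None of the 6 genes of the metabotropic GABA-B receptor and its auxiliary subunits was called. *Gabbr1*, which encodes the subunit that binds GABA, was the highest of them per length, at 481 to 537 CPM. None of the 21 genes for clustering and trafficking of the receptor was called, among which *Gabarapl1*, of the family of GABA-A receptor-associated proteins, was the highest per length at 491 to 547 CPM. None of the 13 cation-chloride cotransporters and their kinases was called, and *Stk39*, the kinase SPAK that phosphorylates the cotransporters, was the highest per length at 244 to 264 CPM.

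Of the 11 tested genes for synthesis, breakdown and transport of GABA, 1 was called, *Slc6a13*, which encodes a plasma membrane transporter that takes up GABA. It was called at 30d against 3d, at 30d against 1d and over all time points, where 0.935%, 0.571% and 1.02% of all genes were. The highest per length of that list was *Aldh9a1*, an aldehyde dehydrogenase that can form GABA, at 52.3 to 62.1 CPM, with a log2 fold change of 0.02 (SE 0.0749) at 30d against 0d. *Slc6a13* was at 12.6 and 8.22 CPM at 0d, 7.85 and 7.71 CPM at 1d, 7.37 and 6.89 CPM at 3d, and 13.98 and 14.4 CPM at 30d. Both 30d libraries were the highest, and 0d replicate 1 came next. It rose at 30d against 3d by 0.99 on the log2 scale (SE 0.165, adjusted p = 0.0110) and against 1d by 0.86 (SE 0.167, adjusted p = 0.0284), while the difference from 0d was 0.45 (SE 0.163, adjusted p = 0.288). That difference rests on the 0d libraries, at 0.79 without 0d replicate 1 (adjusted p = 0.0435) and 0.17 without 0d replicate 2 (adjusted p = 0.880).

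The call against 3d was lost without 3d replicate 1 (adjusted p = 0.173) or 3d replicate 2 (0.239), with fold changes of 1.04 and 0.94 on the log2 scale. That against 1d was lost under limma-voom (0.0826), without robust estimation (0.0633), and without 30d replicate 2 or any 1d or 3d library (0.0707 to 0.3495), with fold changes of 0.84 to 0.88 over these. Fibroblast markers (4 genes) summed to 1110 and 1176 CPM at 30d, 1549 CPM in 0d replicate 1 and 1063 to 1168 CPM in the other 5 libraries. Their log2 fold changes at 30d against 0d went both ways, and none was called. They were -0.51 for *Col1a1*, -0.42 for *Col1a2*, 0.11 for *Dcn* and 0.27 for *Pdgfra*. The part of fibroblasts in the level of *Slc6a13* was not tested.

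**Figure D4:**
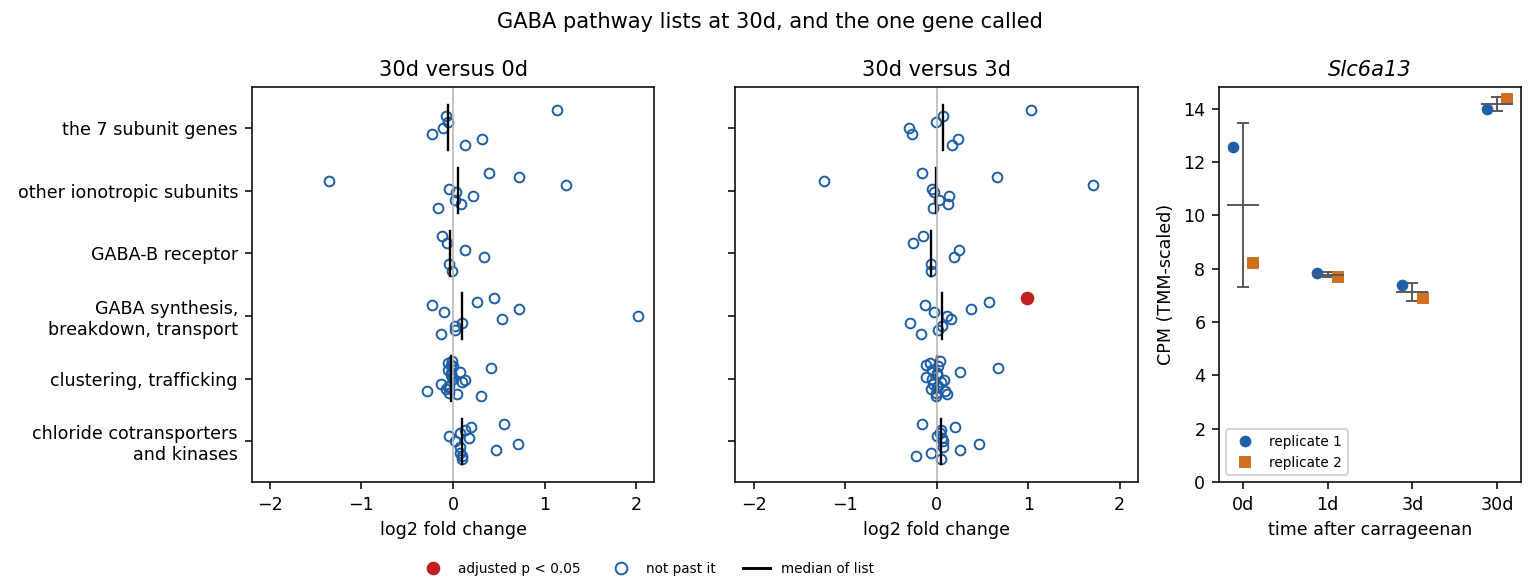
Log2 fold changes of the tested genes of 6 lists at 30d against 0d (left) and 30d against 3d (middle), 1 point per gene with a bar at the median of each list, and the CPM of *Slc6a13* per library with mean ± SD (right). Filled points passed an adjusted p of 0.05, and only *Slc6a13* at 30d against 3d does.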

How the data were processed

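RNA was sequenced from 8 libraries, 2 per time point. Per the labels and the file headers, the authors used cutadapt 2.10 for trimming, STAR 2.7.5a for alignment to mm10, and featureCounts 2.0.1 for counting on UCSC gene models, without strand and giving a read pair to every gene it overlapped. The deposited values are these counts per gene, without normalization. Columns were matched to samples by name.

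In R 4.3.3, genes were filtered with edgeR 4.0.16 (filterByExpr), scaled by TMM, and all 8 libraries were fitted together with time as the only term. Differences were tested with the robust quasi-likelihood F-test, with Benjamini-Hochberg adjustment over all 17328 genes tested and a threshold of 0.05. The SE of a log2 fold change is its absolute value over the root of F, and 95% intervals use the t distribution of the fit. CPM were TMM-scaled, and correlations used log2 CPM with a prior count of 2. CPM per kb used the lengths in the deposited table. Poisson intervals cover counting error only. The p-values set a difference against the spread between pools, 2 per group, estimated over all 8 libraries and moderated across genes. The fit was tested on simulated counts.

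The 7 genes, the pathway and marker lists and the comparisons were chosen with earlier results of these data known. All 7 genes were named. From the pathway lists the genes named were those called and the highest per length of each list, and results for single genes of the other ionotropic subunits are not reported here. For each of the 7, the 2 genes with the most similar log2 CPM were named, among genes with a mean CPM of at least 1. Alternatives were no filter and a filter at 1 CPM in 2 libraries, size factors and upper-quartile scaling, no robust estimation, DESeq2 1.42.0, limma-voom (limma 3.58.1), the compared groups alone, a replicate block, removal of a gene length trend, a threshold of 0.10, and each library left out in turn. Removal of a GC trend was added after the data had been seen, with GC content from GENCODE vM21 for 96.0% of the genes tested. The yeast data and the networks of the study were not analysed here.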

Additional observations from a re-analysis of the deposited data

How the results depend on the processing

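None of the 7 genes was called under the 11 alternative settings that kept all libraries, or at a threshold of 0.10. The replicate numbers did not pair the libraries (correlations of the replicate differences between time points of -0.0144 to 0.0438), and with the replicate number as a block 0 of the 7 were called in every comparison. Of 456 fold changes under these settings 454 kept their sign, and the exception was *Gabrb2* at 30d against 3d, which was -0.00282 and became 0.00268 under the CPM filter and 0.00612 under upper-quartile scaling. *Gabrg3* failed the CPM filter and gave no value there. With each library left out in turn, 0 to 1 of the 7 were called at 30d against 1d, the 1 being *Gabra2* without 30d replicate 1, and 32 of 336 fold changes turned their sign, in 22 of 42 comparisons of a gene. For *Gabra2* the ranges were -0.0539 to 0.29 (30d against 0d), -0.0198 to 0.33 (30d against 3d), -0.0129 to 0.27 (3d against 1d). For *Gabra3* the ranges were -0.0143 to 0.0439 (1d against 0d), -0.00259 to 0.15 (3d against 0d), -0.0159 to 0.13 (3d against 1d). For *Gabra5* the ranges were -0.0575 to 0.16 (3d against 0d). For *Gabrb1* the ranges were -0.0213 to 0.12 (1d against 0d), -0.00268 to 0.27 (3d against 1d). For *Gabrb2* the ranges were -0.11 to 0.0904 (1d against 0d), -0.16 to 0.0426 (30d against 0d), -0.15 to 0.0546 (30d against 1d), -0.11 to 0.089 (30d against 3d), -0.15 to 0.0456 (3d against 0d), -0.14 to 0.059 (3d against 1d). For *Gabrg1* the ranges were -0.20 to 0.0399 (30d against 0d), -0.0663 to 0.18 (30d against 1d), -0.0622 to 0.18 (30d against 3d), -0.0624 to 0.0577 (3d against 1d). For *Gabrg3* the ranges were -0.24 to 0.71 (1d against 0d), -0.23 to 0.38 (3d against 0d), -0.60 to 0.34 (3d against 1d). The cause was not tested.

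The counts over all genes, from which the background shares come, moved by over 1.5 times. With all libraries kept, at 30d against 0d, 0 (compared groups alone) to 184 (DESeq2) genes of all those tested were called, at 1d against 0d 49 to 110, at 3d against 0d 20 to 121, at 3d against 1d 43 to 260, at 30d against 3d 92 to 378 and at 30d against 1d 74 to 229. With 1 library left out they ranged from 1 to 202 at 30d against 0d, 26 to 111 at 1d against 0d, 1 to 121 at 3d against 0d, 5 to 117 at 3d against 1d, 12 to 525 at 30d against 3d and 51 to 359 at 30d against 1d. At 30d against 1d the fit without 30d replicate 1, which gave the call of *Gabra2*, was also the one that called the most of all genes. The low counts of *Gabrb1* and *Gabrg3*, 17 to 94 per library, leave intervals that do not exclude a change of 0.5 on the log2 scale in either direction at 1d and 3d against 0d.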

Other observations

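The 2 genes whose log2 CPM over the 8 libraries was most like that of each subunit gene, among 14639 genes with a mean of at least 1 CPM, are given as a description. They were *Pcdh8* (Pearson's r 0.99) and *Efcab7* (0.97) for *Gabra2*, *Gpsm1* (0.997) and *Morc3* (0.98) for *Gabra3*, and *Hmgb1* (0.97) and *Efemp2* (0.96) for *Gabra5*. They were *Kif5b* (0.95) and *Chm* (0.95) for *Gabrb1*, *Frem1* (0.95) and *Prkaa1* (0.94) for *Gabrb2*, *Tmem229b* (0.97) and *Itgav* (0.96) for *Gabrg1*, and *Hpgds* (0.97) and *Chgb* (0.96) for *Gabrg3*. The 100th most similar gene had an r of 0.77 for *Gabrb2* and of 0.88 for *Gabra2*, the lowest and the highest of the 7.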
